A study of Homo sapiens with 4 samples.

Results

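The genes described here encode 2 pairs of ligand and receptor families that steer growing axons and migrating cells: the ephrins with the Eph receptors, and the semaphorins with the plexins. They were taken by symbol, which found 51 genes of the 26364 in the count tables: 8 ephrins, 14 Eph receptors, 20 semaphorins and 9 plexins. Of these, 50 had enough counts to be tested, and the remaining member, EPHA5, had 3 to 6 counts in each library. Messenger RNA was sequenced in NTERA2, a human embryonal carcinoma line (clone CRL-1973 in the labels) grown in high-glucose DMEM with serum. The labels give the genotypes BEND3 LacZ, with replicates 1 and 3, and BEND3 sh60, with replicates 1 and 2. The BEND3 protein carries BEN domains and represses transcription. In the text below LacZ serves as control and sh60 is taken for a hairpin targeting BEND3, a reading that the labels do not spell out. Both groups share the same line and medium, and an untreated parental group was not analysed here. No label states that the replicates are separate cultures, so each p-value covers only how far these 4 samples spread, a spread that could be technical.

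Eph receptors are the largest family of receptor tyrosine kinases. Their ligands, the ephrins, are held on the surface of the neighbouring cell, class A by a lipid anchor and class B by a membrane-spanning segment, and both partners signal when cells touch, often causing repulsion. Semaphorins are secreted (class 3) or bound to the membrane (classes 4 to 7) and act through plexins, large receptors whose inner part switches off small Ras-type GTPases. Class 3 semaphorins mostly need a neuropilin as co-receptor. In embryos these families set tissue boundaries and guide neural crest, vessels and axons.

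The libraries held 30338285 to 44788461 counts. Levels are given as CPM, the counts scaled to library size with TMM factors. In this unit 1 count equals 0.0221 to 0.0333 CPM. LacZ replicates 1 and 3 had 68.8 and 79.3 CPM of BEND3, and sh60 replicates 1 and 2 had 55.7 and 52.0 CPM. It was lower in both sh60 libraries (log2 fold change -0.46, SE 0.098, edgeR adjusted p = 0.00168), a call lost without LacZ replicate 3 (adjusted p = 0.153). All 7 markers of lung epithelium stayed under 1 CPM, although the labels call the line a lung carcinoma. All 10 markers of embryonal carcinoma cells were expressed, but 5 of them were lower in sh60. Their log2 fold changes were -0.72 in DNMT3B, -0.49 in TDGF1, -0.45 in LIN28B, -0.31 in SALL4 and -0.25 in NANOG. SOX2 was higher (0.31), and POU5F1, LIN28A, DPPA4 and L1TD1 did not pass. The calls of NANOG, SALL4 and SOX2 were lost when either LacZ library was left out. Those of TDGF1 and LIN28B were lost without LacZ replicate 3. Of all tested genes, 15.8% were called higher and 13.0% lower. Fibroblast markers summed to 544.2 and 447.1 CPM in LacZ and 929.3 and 1093 CPM in sh60, with 4 of 9 tested members higher and 2 lower. COL1A1 alone had 141.4 and 84.9 CPM in LacZ and 553.7 and 684.0 CPM in sh60, and without it the list summed to 402.8 and 362.2 CPM in LacZ and 375.6 and 409.4 CPM in sh60, which overlap. That remainder held changes in both directions. COL1A2, LUM and POSTN were also higher (log2 fold changes 2.13, 1.61 and 0.98). THY1 and PDGFRA were lower (-0.34 and -0.30), calls lost when either LacZ library was left out. THY1 was abundant, with 232.8 and 229.9 CPM in LacZ and 175.3 and 189.1 CPM in sh60. Neuronal markers summed to 442.3 and 394.6 CPM in LacZ and 529.8 and 540.9 CPM in sh60, with 5 of 11 higher and 2 lower. Endothelial markers summed to 95.9 to 111.7 CPM in LacZ and 85.3 to 90.1 CPM in sh60, with 4 of 7 tested members lower, PECAM1 at no more than 0.133 CPM and EMCN at 0 in every library. Blood markers summed to 3.06 to 3.38 CPM, with PTPRC and HBB at 0, and epithelial markers to 2432 to 2648 CPM. The part of these markers in the results below was not tested. In bulk RNA, fewer cells of a type and less RNA per cell cannot be told apart.

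With all 4 libraries, genes called higher and genes called lower were found in each of the 4 families. Some of these calls rested on single libraries. Those of EFNA1 and EFNA4, the only ephrins called, were lost without LacZ replicate 3. Those of PLXND1 and PLXNA2, the only plexins that fell, were lost without LacZ replicate 1. Of the 50 tested genes, 20 passed edgeR's quasi-likelihood test at an adjusted p of 0.05, 10 higher and 10 lower in sh60, which is 40.0% beside 28.8% of all 16040 tested genes (15.8% higher and 13.0% lower). Among the receptors 6 of 22 rose and 5 fell, and among the ligands 4 of 28 rose and 5 fell. The plexins had 4 rises and 2 falls in 9 genes, the semaphorins 3 and 4 in 20, the Eph receptors 2 and 3 in 13, and the ephrins 1 and 1 in 8. The 4 rises of 1 or more on the log2 scale were in PLXNC1, SEMA3C, PLXNB3 and SEMA3B, beside 3.58% of all tested genes. No member fell by that much, beside 2.25% of all tested genes, and the lowest value was -0.71, in SEMA6C. The median log2 fold change over the members was -0.079, and it was -0.0042 over all tested genes. Fewer members were called without LacZ replicate 3, and so were fewer of all tested genes.

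**Figure D1:**
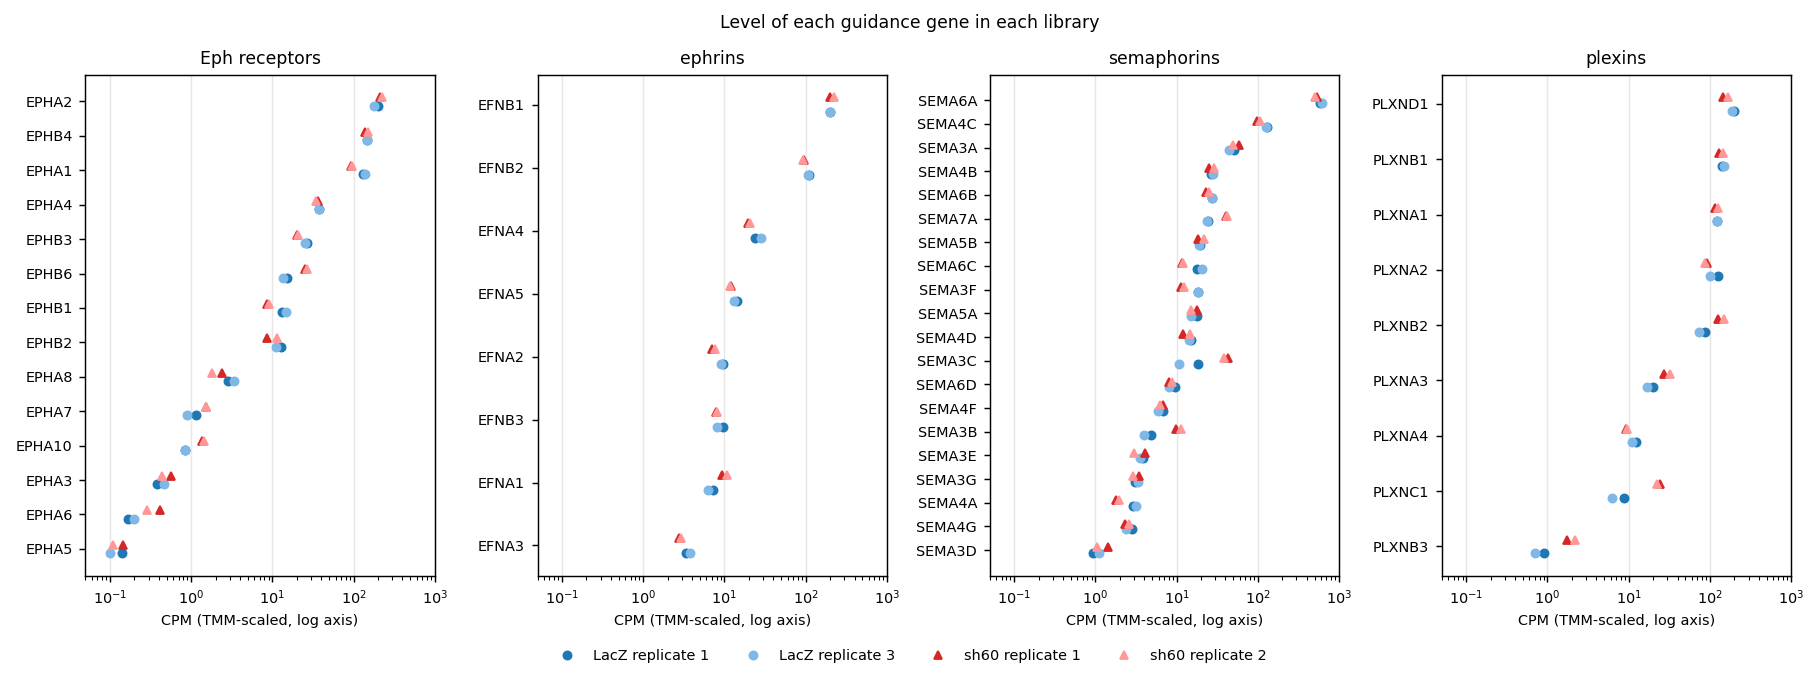
Each row is a gene and each point a library, with CPM after TMM scaling on a log axis, circles for LacZ and triangles for sh60. Triangles lie to the right of both circles by the widest gaps in PLXNC1, SEMA3C, PLXNB3 and SEMA3B. Highly expressed genes have narrower gaps on this axis, but several were called, among them PLXNB2 (higher) and EPHA1 (lower).

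The promoters of PLXNC1 and SEMA7A are shown because they are a receptor and its ligand that both rose. Each sequence is the 250 bases before a gene start in RefSeq (GRCh38.p14), 5′ to 3′ on the gene's strand. RefSeq lists 2 starts for each of these genes, and the one used here fits the span of the gene in the count tables, to within 146 bases for PLXNC1 and 0 for SEMA7A. Capitals mark GC boxes (GGGCGG), searched on both strands, which may overlap each other.
PLXNC1, chr12:94148327-94148576, plus strand: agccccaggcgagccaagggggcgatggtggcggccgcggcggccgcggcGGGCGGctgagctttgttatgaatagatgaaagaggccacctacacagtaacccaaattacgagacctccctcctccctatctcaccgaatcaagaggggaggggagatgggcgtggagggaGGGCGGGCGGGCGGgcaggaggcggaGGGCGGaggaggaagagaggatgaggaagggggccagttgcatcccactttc
SEMA7A, chr15:74433959-74434208, minus strand: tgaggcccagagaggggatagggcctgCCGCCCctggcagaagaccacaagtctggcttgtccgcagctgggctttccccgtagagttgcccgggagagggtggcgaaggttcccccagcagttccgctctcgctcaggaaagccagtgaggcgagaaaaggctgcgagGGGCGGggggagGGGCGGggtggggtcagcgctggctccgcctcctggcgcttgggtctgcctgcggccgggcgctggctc
The PLXNC1 window held 5 GC boxes and the SEMA7A window held 3, with 18 and 17 CpG dinucleotides.

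A RefSeq start that fits the counted span was found for 37 of the 51 genes. EFNB3, EPHA6, EPHA10, EPHB6, PLXNA1, PLXNA3, PLXNA4, PLXNB2, SEMA3A, SEMA3D, SEMA4D, SEMA4F, SEMA6A and SEMA6B were not matched, among them 4 of the 10 genes that rose. A GC box was found in 6 of 6 matched promoters of genes that rose, in 9 of 10 of genes that fell and in 14 of 20 of genes that did not pass, beside 67% of the 9277 matched promoters of tested genes and 54.6% of all 12943 matched promoters. Other motifs were searched as well. A CCAAT box was in 2 of 6 promoters of risers and 5 of 10 of fallers, beside 34% of those of tested genes. TATAAA, the AP-1 site TGANTCA, a p53 half-site and the E-box CACGTG were in 0 of 6 and 0 of 10. Their shares over the promoters of tested genes were 5.69%, 3.84%, 4.42% and 8.32%. The median CpG count was 17.5 among the risers, 22.5 among the fallers, 17 among genes that did not pass and 21 over the promoters of tested genes. These are matches of letters in 1 window per gene, given as a description.

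Among the ligands, the semaphorins held the largest rises. SEMA3C, a secreted semaphorin of cardiac outflow and neural crest development (chromosome 7, 80371854 to 80548667 in hg19), stood at 18.2 CPM in LacZ replicate 1, 10.7 in LacZ replicate 3, 43.4 in sh60 replicate 1 and 38.9 in sh60 replicate 2. Values of other genes follow this library order. Both sh60 libraries lay above both LacZ libraries, and the LacZ libraries were themselves well apart. The level was 2.82-fold higher (log2 fold change 1.496, SE 0.16, edgeR adjusted p = 2.10e-06), with log2 fold changes of 1.18 without LacZ replicate 3 and 1.95 without LacZ replicate 1. SEMA3B, a secreted semaphorin known as a candidate tumour suppressor of lung (chromosome 3, 50304990 to 50314602), measured 4.82 and 3.99 CPM in LacZ and 9.96 and 11.2 CPM in sh60. The groups did not overlap, and SEMA3B was 2.39-fold higher (log2 fold change 1.26, SE 0.15, edgeR adjusted p = 7.42e-06). The exons of SEMA3B share 62 bases, 1.84% of their length, with a microRNA gene on the same strand. SEMA7A, a lipid-anchored semaphorin that binds plexin C1 and integrins (chromosome 15, 74701630 to 74726299), measured 24.5 and 23.8 CPM in LacZ and 40.3 and 41.2 CPM in sh60. Replicates were close to each other, and the level was 1.69-fold higher (log2 fold change 0.76, SE 0.10, edgeR adjusted p = 1.89e-05).

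The semaphorins that fell were SEMA6C, SEMA4A, SEMA3F and SEMA4C. SEMA6C, a membrane-spanning semaphorin, measured 18.0 and 20.6 CPM in LacZ and 11.5 and 11.9 CPM in sh60, a non-overlapping difference (log2 fold change -0.71, SE 0.12, edgeR adjusted p = 0.000224). SEMA3F, which repels axons and endothelial cells through neuropilin-2, measured 18.6 and 18.1 CPM in LacZ and 11.5 and 12.4 CPM in sh60 (log2 fold change -0.62, SE 0.12, edgeR adjusted p = 0.000598). In SEMA3F too the sh60 libraries both lay below the LacZ libraries. SEMA4A, known from immune and retinal cells, was low, with 2.94 and 3.13 CPM in LacZ and 1.82 and 1.94 CPM in sh60 (log2 fold change -0.68, SE 0.20, edgeR adjusted p = 0.0177). That call was lost without LacZ replicate 3 (adjusted p = 0.0762), by DESeq2 (0.0901), and when either sh60 library was left out (0.0679 for replicate 1 and 0.0517 for replicate 2). SEMA4C, the ligand of plexin B2, measured 129.6 and 127.9 CPM in LacZ and 97.5 and 107.2 CPM in sh60 (log2 fold change -0.33, SE 0.086, edgeR adjusted p = 0.00752), and did not pass without LacZ replicate 1 (0.173) or LacZ replicate 3 (0.153).

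The other 13 semaphorins did not pass, with log2 fold changes from -0.19 in SEMA6A to 0.30 in SEMA3D. SEMA6A, a membrane semaphorin that binds plexins A2 and A4, was the most abundant member of any family per length. It measured 580.1 and 610.5 CPM in LacZ and 533.8 and 510.7 CPM in sh60. The sh60 libraries were lower without overlap, but the difference was small (log2 fold change -0.19, SE 0.077, edgeR adjusted p = 0.0764), and it passed with upper-quartile scaling (0.0389), with GC and length trends removed (0.00949), without sh60 replicate 1 (0.00321) and without sh60 replicate 2 (0.0383). SEMA3A, the classic axon-repelling semaphorin, measured 43.8 to 50.8 CPM in LacZ and 49.4 to 58.4 CPM in sh60, with overlapping libraries (log2 fold change 0.18, edgeR adjusted p = 0.222). SEMA5A and SEMA5B, SEMA4B, SEMA4F and SEMA3G had log2 fold changes between -0.040 and 0.052. By library order, 3 of 20 semaphorins had both sh60 libraries above LacZ, 6 had both below and 11 overlapped, beside 64.4% of all tested genes without overlap (32.1% above and 32.3% below).

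Plexins, the receptors of the semaphorins, included the largest rise of any member. PLXNC1, the receptor of SEMA7A (chromosome 12, 94542499 to 94701451), measured 8.83 and 6.19 CPM in LacZ and 24.3 and 22.1 CPM in sh60. The groups lay far apart, and PLXNC1 was 3.05-fold higher (log2 fold change 1.61, SE 0.15, edgeR adjusted p = 2.75e-07). PLXNB3, a plexin that binds SEMA5A (chromosome X, 153029651 to 153044801), was low, at 0.902 and 0.699 CPM in LacZ and 1.73 and 2.19 CPM in sh60. The level of PLXNB3 was 2.43-fold higher (log2 fold change 1.28, SE 0.27, edgeR adjusted p = 0.00177), on 21 to 99 counts per library. PLXNB2, which binds class 4 semaphorins, measured 88.2 and 73.0 CPM in LacZ and 125.5 and 147.5 CPM in sh60. Its rise was 1.69-fold (log2 fold change 0.76, SE 0.10, edgeR adjusted p = 2.54e-05), the largest in absolute CPM among the members. PLXNA3, a plexin of class 3 semaphorin signalling, measured 19.8 and 17.0 CPM in LacZ and 27.0 and 32.1 CPM in sh60 (log2 fold change 0.68, SE 0.12, edgeR adjusted p = 0.000303).

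Falls in 2 plexins, PLXND1 and PLXNA2, were smaller in size. PLXND1, the receptor of SEMA3E and a vascular guidance gene, was the leading plexin per length. It measured 200.6 and 185.6 CPM in LacZ and 145.8 and 166.6 CPM in sh60 (log2 fold change -0.31, SE 0.088, edgeR adjusted p = 0.0139), and did not pass without LacZ replicate 1 (0.307) or LacZ replicate 3 (0.103). PLXNA2, a receptor of SEMA6A, measured 126.5 and 99.2 CPM in LacZ and 92.3 and 88.0 CPM in sh60 (log2 fold change -0.33, SE 0.10, edgeR adjusted p = 0.0239). The PLXNA2 call rested on LacZ replicate 1, without which the log2 fold change was -0.13 (adjusted p = 0.660). PLXNA1, PLXNB1 and PLXNA4 did not pass, at -0.020, -0.078 and -0.31 on the log2 scale. PLXNA4 passed with GC and length trends removed (edgeR adjusted p = 0.0366).

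Eph receptors showed 3 falls and 2 rises in 13 tested genes, which is 38.5% called beside 28.8% of all tested genes. EPHA1, a receptor of ephrin-A1 (chromosome 7, 143088205 to 143105985), measured 131.8 and 137.4 CPM in LacZ and 93.0 and 95.1 CPM in sh60. Replicates were close and the groups did not overlap (log2 fold change -0.52, SE 0.084, edgeR adjusted p = 0.000157). EPHB1, a receptor that steers retinal axons at the midline, measured 13.2 and 14.7 CPM in LacZ and 8.66 and 9.08 CPM in sh60 (log2 fold change -0.65, SE 0.13, edgeR adjusted p = 0.000919). EPHB3, known from the sorting of intestinal crypt cells, measured 26.9 and 25.5 CPM in LacZ and 20.03 and 20.92 CPM in sh60 (log2 fold change -0.35, SE 0.11, edgeR adjusted p = 0.0181), and did not pass without LacZ replicate 1 (0.219) or LacZ replicate 3 (0.109).

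Both Eph receptors that rose, EPHB6 and EPHA10, have a kinase domain that lacks catalytic activity. EPHB6 (chromosome 7, 142552776 to 142568847) measured 15.2 and 13.5 CPM in LacZ and 25.0 and 26.8 CPM in sh60. The groups were well apart, and EPHB6 was 1.80-fold higher (log2 fold change 0.84, SE 0.11, edgeR adjusted p = 2.34e-05). EPHA10 was low, at 0.831 and 0.832 CPM in LacZ and 1.38 and 1.44 CPM in sh60 (log2 fold change 0.76, SE 0.28, edgeR adjusted p = 0.0490). It sat at the edge of the threshold and was lost when any 1 library was left out (0.105 to 0.171), with upper-quartile scaling (0.0546), by limma-voom (0.0637) and by DESeq2 (0.230). EPHA8 lay just outside the threshold, at 2.83 and 3.39 CPM in LacZ and 2.38 and 1.81 CPM in sh60 (log2 fold change -0.57, SE 0.21, edgeR adjusted p = 0.0532). EPHA8 passed edgeR's test with upper-quartile scaling (0.0318) and with no count filter (0.0259). EPHA2, the leading Eph receptor per length and a receptor of ephrin-A1, measured 201.1 and 179.9 CPM in LacZ and 212.3 and 222.2 CPM in sh60 (log2 fold change 0.19, 95% confidence interval 0.012 to 0.37, edgeR adjusted p = 0.102). It passed with GC and length trends removed (0.0128) and without sh60 replicate 1 (0.00926). EPHB4, the receptor of ephrin-B2 in veins, lay at -0.011 on the log2 scale (95% confidence interval -0.19 to 0.17). EPHB2, EPHA4, EPHA3, EPHA7 and EPHA6 ran from -0.27 to 0.91 on the log2 scale and did not pass. EPHA3, EPHA5 and EPHA6 were near the limit of detection, under 0.6 CPM in each library.

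Of the 8 ephrins, 2 passed, which is 25.0% beside 28.8% of all tested genes. EFNA1, the ligand of EphA1 and EphA2, was the member that rose, from 7.24 and 6.32 CPM in LacZ to 9.22 and 10.7 CPM in sh60 (log2 fold change 0.55, SE 0.14, edgeR adjusted p = 0.00775). The libraries did not overlap, but the call was lost without LacZ replicate 3 (0.0909) and without sh60 replicate 2 (0.0557). EFNA4, another lipid-anchored ephrin, fell from 23.9 and 28.3 CPM to 19.7 and 20.8 CPM (log2 fold change -0.36, SE 0.11, edgeR adjusted p = 0.0226), and was lost without LacZ replicate 3 (-0.24, adjusted p = 0.415). EFNB1, which sets boundaries in craniofacial tissue and led the ephrins per length, measured 202.2 and 197.6 CPM in LacZ and 197.4 and 220.4 CPM in sh60, with overlapping libraries (log2 fold change 0.064, 95% confidence interval -0.11 to 0.24, edgeR adjusted p = 0.619). EFNB2, the arterial ephrin, measured 109.3 and 107.4 CPM in LacZ and 94.4 and 91.8 CPM in sh60 (log2 fold change -0.22, SE 0.085, edgeR adjusted p = 0.0623). It passed with upper-quartile scaling (0.0323), with GC and length trends removed (0.00873), without sh60 replicate 1 (0.00591) and without sh60 replicate 2 (0.0268). EFNA2, EFNA3, EFNA5 and EFNB3 were between -0.35 and -0.16 on the log2 scale and did not pass. EFNA2 passed edgeR's test with upper-quartile scaling (0.0413) and with GC and length trends removed (0.0424). In 6 of the 8 ephrins both sh60 libraries lay below both LacZ libraries, beside 32.3% of all tested genes. Of these 6, EFNA4 alone passed the test. By the same order, the Eph receptors had 5 above, 5 below and 3 overlapping, and the plexins 4, 3 and 2. The 50 tested members had 13 above, 20 below and 17 overlapping, beside 64.4% of all tested genes without overlap.

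**Figure D2:**
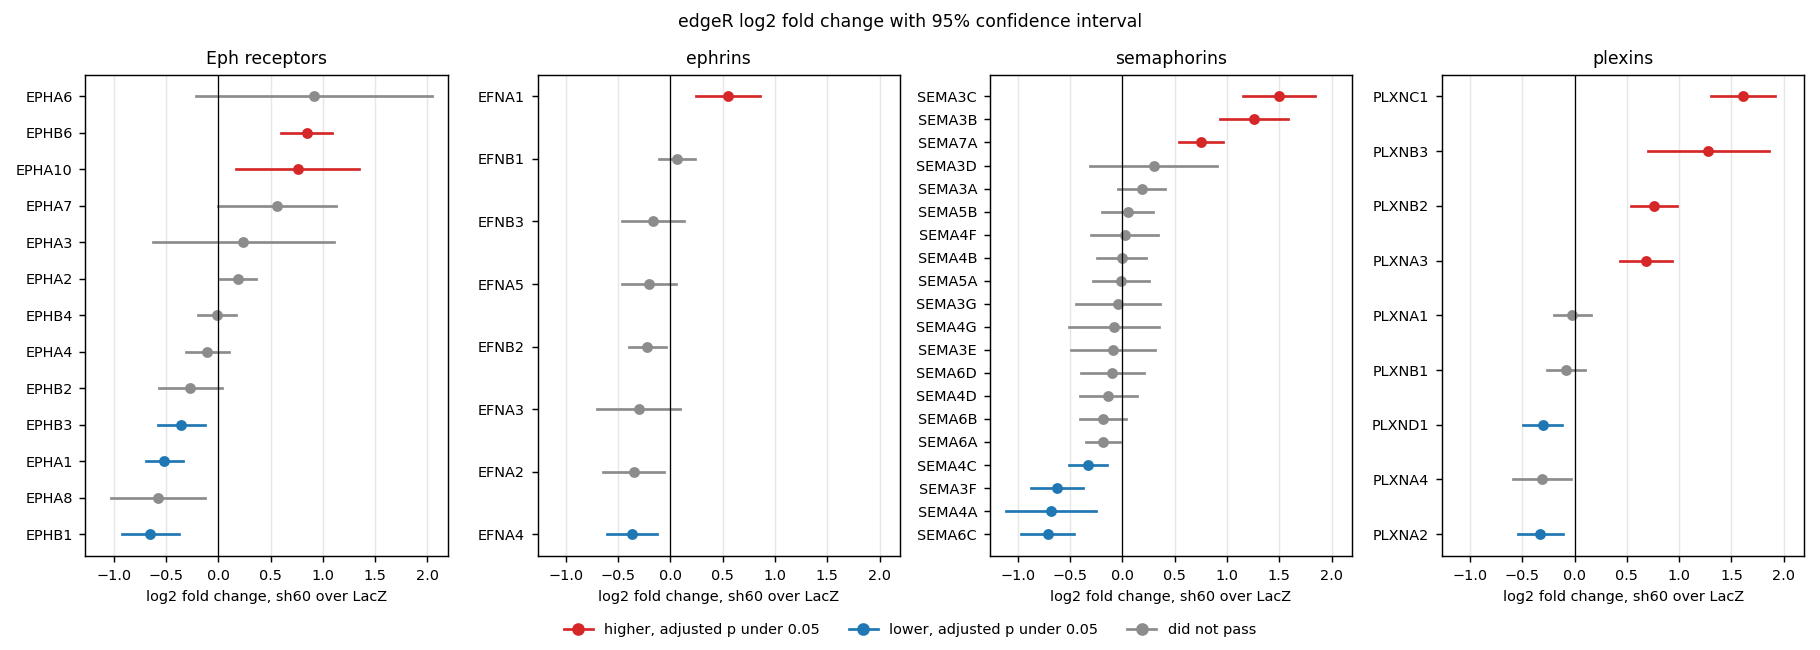
Points give the edgeR log2 fold change of sh60 over LacZ for the 50 tested genes and lines its 95% confidence interval, which is not adjusted for the number of genes, so some grey intervals exclude 0. PLXNC1 at 1.61 and SEMA3C at 1.496 stand highest, and SEMA6C at -0.71 lowest among genes that passed.

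Levels between genes were compared per length, as RPKM, the CPM divided by exon length in kilobases. In LacZ the order of the Eph receptors began with EPHA2 (48.1 RPKM), EPHA1 (40.0) and EPHB4 (33.5), which together held 85.6% of the summed RPKM of the family. EFNB1 (60.0), EFNB2 (24.7) and EFNA4 (20.8) held 86.8% of the ephrin sum. SEMA6A (85.3), SEMA4C (36.3) and SEMA3A (8.36) led the semaphorins, and PLXND1 (27.7), PLXNB1 (19.8) and PLXNA1 (13.6) led the plexins. Neighbours in these orders whose LacZ libraries overlapped were EPHA7 with EPHA10, EFNA2 with EFNA1, EFNB3 with EFNA5, PLXNA1 with PLXNB2, SEMA7A with SEMA4B, SEMA4B with SEMA6B, and several semaphorins lower down. Ligand and receptor mRNA of both systems was present in all 4 libraries.

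The order shifted in sh60. PLXNB2 moved from the fourth to the second plexin (12.7 ± 1.70 to 21.5 ± 2.46 RPKM, SD, n = 2 each), close to PLXND1 (22.4 ± 2.11). SEMA3C moved from the tenth to the fifth semaphorin (2.79 ± 1.02 to 7.96 ± 0.619 RPKM), and EPHA1 from the second to the third Eph receptor, below EPHB4. The summed RPKM of each family moved little. Eph receptors summed to 144.2 and 139.9 RPKM in LacZ and 132.7 and 139.9 in sh60, ephrins to 121.2 and 121.7 against 111.9 and 120.4, and plexins to 91.5 and 85.0 against 87.5 and 97.1. Semaphorins summed to 176.5 and 177.4 RPKM in LacZ and to 167.0 and 166.9 in sh60. Within them class 3 was higher in sh60 (20.6 and 17.6 against 26.5 and 24.3 RPKM), while class 4 (48.1 and 47.6 against 37.7 and 41.9) and class 6 (95.8 and 100.7 against 86.4 and 83.7) were lower. Single genes weighed heavily in these class sums. SEMA3C, given above, is in class 3. In LacZ, SEMA4C held 75.8% of the class 4 sum and SEMA6A 86.8% of the class 6 sum. LacZ and sh60 libraries overlapped in 4 of 7 class 3, 4 of 6 class 4 and 1 of 4 class 6 genes. These sums are descriptions, and with 2 libraries a group an exact permutation test could not reach 0.05.

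**Figure D3:**
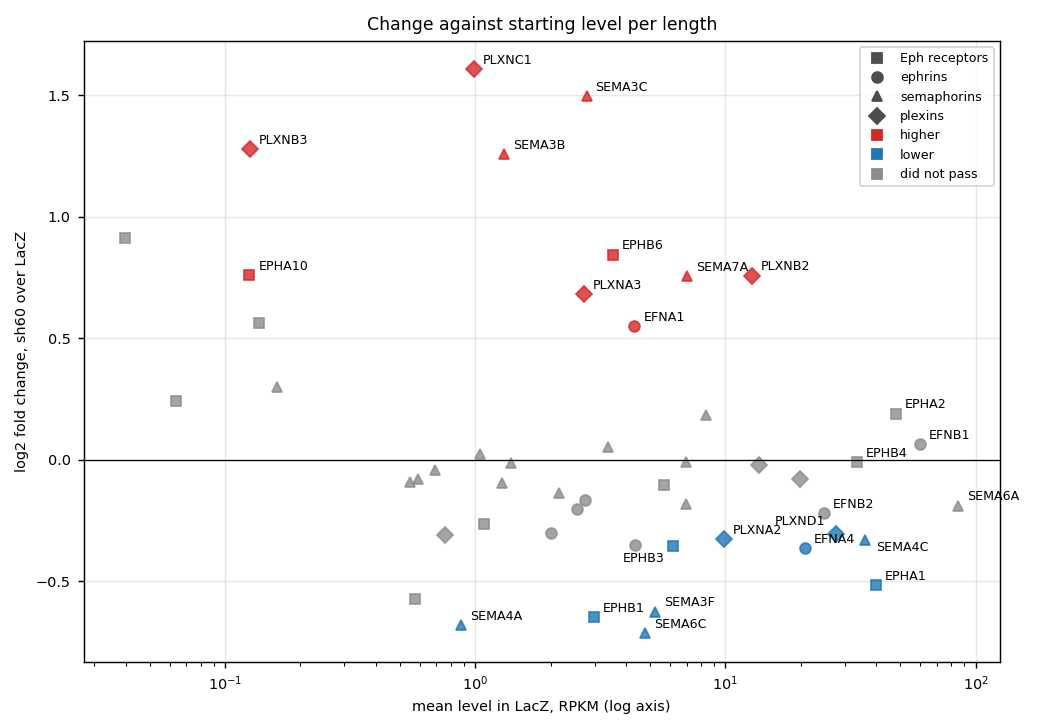
The mean RPKM in LacZ is on the log x axis and the edgeR log2 fold change of sh60 over LacZ on the y axis, 1 point per tested gene, with the shape giving the family and the colour the call. Genes above 1 on the y axis began under 3 RPKM in LacZ, and genes above 20 RPKM lay between -0.52 and 0.19; the LacZ libraries enter both axes.

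Ligands were then set beside receptors they are known to bind, in 14 pairs chosen with the values known. The pair SEMA7A and PLXNC1 was the only 1 of the 14 in which both genes rose. In 2 pairs the partners moved in opposite directions. EFNA1 rose (0.55) while its receptor EPHA1 fell (-0.52), and SEMA4C fell (-0.33) while its receptor PLXNB2 rose (0.76). As given above, the EFNA1 call was lost without LacZ replicate 3 and without sh60 replicate 2. The SEMA4C call was lost when either LacZ library was left out. In 4 pairs the receptor alone passed: EPHB3 beside EFNB1, PLXND1 beside SEMA3E, PLXNB3 beside SEMA5A, and PLXNA2 beside SEMA6A. Of these receptors, EPHB3 and PLXND1 lost their call when either LacZ library was left out, and PLXNA2 without LacZ replicate 1. In 1 pair the ligand alone passed, EFNA1 beside EPHA2, and in 6 pairs neither did. Both partners fell in 0 of the 14 pairs. Some pairs share a gene and are not independent. The called ligands SEMA3B, SEMA3C, SEMA3F, SEMA4A, SEMA6C and EFNA4 are in none of the pairs. Nor are the called receptors EPHB1, EPHB6, EPHA10 and PLXNA3. The counts therefore depend on which pairs were chosen and do not describe ligands and receptors in general.

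**Figure D4:**
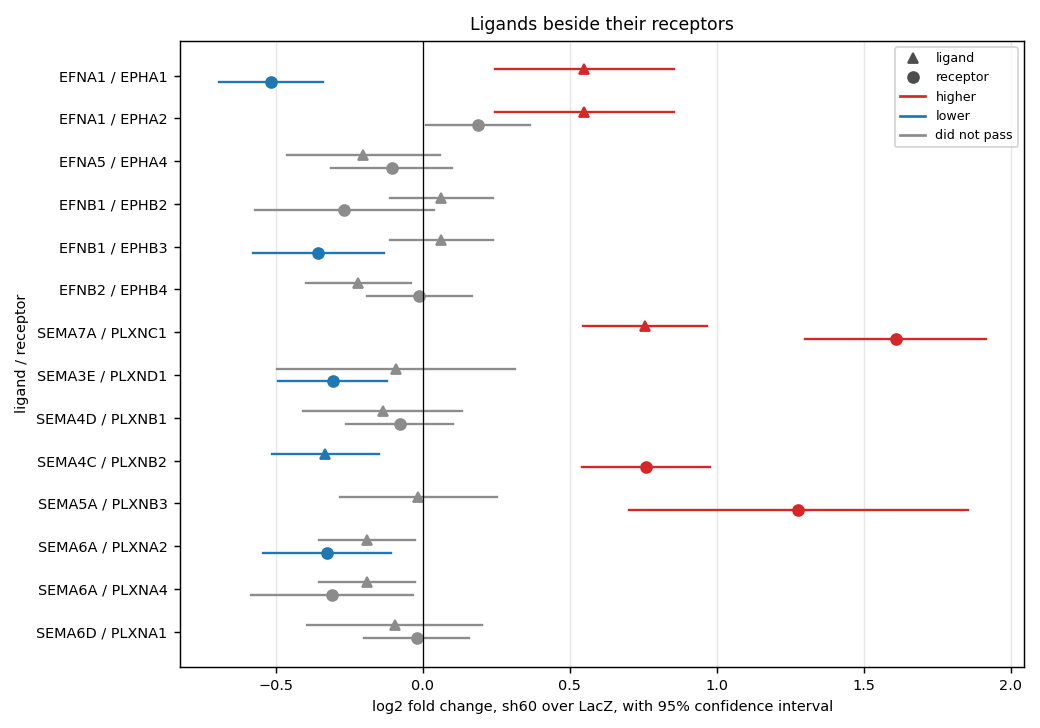
Each row is a ligand (triangle) and a receptor (circle) with the edgeR log2 fold change of sh60 over LacZ and its 95% confidence interval, red for higher, blue for lower and grey for genes that did not pass. SEMA7A and PLXNC1 are both red, at 0.76 and 1.61, and EFNA1 with EPHA1 and SEMA4C with PLXNB2 are split between red and blue.

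Several members are neighbours in the genome (hg19), and some of these neighbours moved in opposite directions. SEMA3F and SEMA3B lie 78.5 kb apart on the same strand of chromosome 3, and the first fell while the second rose. EPHB6 and EPHA1 lie 519 kb apart on chromosome 7, and the first rose while the second fell. EFNA4, EFNA3 and EFNA1 stand in a row on chromosome 1, with gaps of 9.32 kb and 40.3 kb. EFNA4 fell, EFNA3 did not pass (-0.30) and EFNA1 rose. Without LacZ replicate 3 the calls of EFNA4 and EFNA1 were both lost, at log2 fold changes of -0.24 and 0.46. PLXNB3 and PLXNA3, 642 kb apart on chromosome X, both rose. SEMA3E, SEMA3A and SEMA3D lie within gaps of 309 kb and 801 kb on chromosome 7, and none of these 3 passed (edgeR adjusted p = 0.769, 0.222 and 0.483). EPHA8 and EPHB2, 107 kb apart on chromosome 1, did not pass either (log2 fold changes -0.57 and -0.27).

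Co-receptors and partner receptors were mixed, with 3 of 10 tested higher and 2 lower. NRP2, the neuropilin used by SEMA3F, measured 221.5 and 177.8 CPM in LacZ and 259.4 and 252.9 CPM in sh60 (log2 fold change 0.36, edgeR adjusted p = 0.00821), but not without LacZ replicate 3 (0.437). NRP1, the neuropilin of SEMA3A, did not pass (0.19, adjusted p = 0.310) and is named for its role. KDR, a vascular growth factor receptor that pairs with neuropilins, fell from 31.0 and 25.4 CPM to 16.4 and 14.5 CPM, and ERBB2, a kinase that couples to plexin B1, from 149.8 and 155.5 CPM to 97.8 and 113.5 CPM. KDR is also in the endothelial list above. L1CAM, an adhesion partner of neuropilin-1, rose by 0.35, and ITGA1, an integrin subunit named after its value was seen, by 0.46. Both were lost without LacZ replicate 3 (0.522 and 0.511).

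Genes acting downstream of plexins included several larger changes. Of 31 tested, 9 rose and 4 fell. DPYSL5 and DPYSL4, of the collapsin response mediator family that relays semaphorin signals to microtubules, rose by 1.22 and 1.06 on the log2 scale (edgeR adjusted p = 1.29e-07 and 3.87e-06). The family did not move as one. DPYSL2 rose by 0.23 (adjusted p = 0.0420), a call lost when either LacZ library was left out (0.228 and 0.522) and with upper-quartile scaling (0.0705), and DPYSL3 did not pass (0.20, adjusted p = 0.0642). CRMP1, of the same family, fell from 127.9 ± 2.90 CPM in LacZ to 82.5 ± 10.1 CPM in sh60 (SD, n = 2 each; log2 fold change -0.63, edgeR adjusted p = 6.77e-05). DPYSL2, DPYSL3 and CRMP1 are named after their values were seen. MICAL2, an oxidase that takes apart actin filaments, rose by 1.34, from 10.4 and 7.75 CPM to 22.6 and 23.6 CPM (edgeR adjusted p = 9.30e-07). SH3BP1, a GTPase-activating protein, fell from 38.0 and 44.5 CPM to 19.1 and 20.8 CPM (edgeR adjusted p = 1.55e-06). Downstream of Eph receptors and ephrins, 4 of 31 rose and 6 fell. CHN1, a Rac-inactivating chimaerin that acts behind EphA4, rose by 0.51 (edgeR adjusted p = 0.000461), and the Rac activator TIAM1 and the kinase SRC had values of -0.47 and -0.45 (adjusted p = 0.000626 and 0.00139). The kinase ABL2 rose by 0.44 (adjusted p = 0.00177). TIAM1 and ABL2 were lost without LacZ replicate 3 (0.0631 and 0.131), and SRC without LacZ replicate 1 (0.0629).

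Of 26 tested netrin, slit and RGM guidance genes, 4 rose and 8 fell. NTN4, a laminin-related netrin, rose from 4.75 and 3.06 CPM to 10.9 and 10.9 CPM (log2 fold change 1.46, edgeR adjusted p = 6.03e-06). SLIT2, a ligand of Robo receptors, fell from 47.2 and 55.0 CPM to 29.9 and 26.3 CPM (log2 fold change -0.86, edgeR adjusted p = 1.07e-05). FLRT1, an adhesion protein that binds UNC5 receptors, and NTNG2, a lipid-anchored netrin, also fell, by 1.57 and 1.01 on the log2 scale (edgeR adjusted p = 5.11e-05 and 0.00251). The shares called in these 4 lists were 50.0%, 41.9%, 32.3% and 46.2% in the order given, beside 28.8% of all tested genes.

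The LacZ libraries were not equal in these genes. LacZ replicate 1 was above LacZ replicate 3 in 9 of the 10 members that rose and in 5 of the 10 that fell. Over all called genes the shares were 75.5% of those that rose and 33.8% of those that fell. In 12 of the 20 called members, among them PLXNC1, SEMA3C, SEMA3B, PLXNB3, PLXNB2, SEMA7A, EPHB6 and EPHA1, the call held under all 12 alternatives run.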

How the data were processed

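The deposited values are raw read counts per gene, 1 table per library. The submitters' processing notes name STAR 2.7.6a, FastQC and hg19 (GRCh37). Per the file headers, featureCounts of Subread 2.0.0 counted exonic reads with strand setting 2. Sense and antisense reads are therefore counted apart. The headers carry no option for multi-mapping reads or reads shared by overlapping genes, which the tool's defaults leave out. Samples were grouped by their titles.

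Groups were compared with edgeR 4.0.16 under R 4.3.3, by the quasi-likelihood test with TMM factors, filterByExpr and group as the only term. All 4 libraries and 16040 genes entered, with Benjamini-Hochberg adjustment over all of them and a threshold of 0.05. The biological coefficient of variation was 7.33%. Intervals are at 95%. Within each group the libraries varied beyond counting error (chi-square divided by its degrees of freedom 6.68 and 18.4). Alternatives were other scalings, DESeq2 1.42.0, limma-voom (limma 3.58.1), other count filters, GC and length trends removed (GC from GENCODE transcripts, found for 94.2% of tested genes), and each library left out.

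The members and lists were chosen with earlier results of these data known. Every member may be named. Library values are given for members past the threshold with a log2 fold change of at least 0.5 in size and a higher group mean of at least 1 CPM, and for the member with the highest RPKM in each family. Those of SEMA4C, PLXNA2, EPHB3, EFNA4, EPHA8, EFNB2 and SEMA3A were added after their values were seen. From the other lists, the called genes with the lowest p, at most 4 a list, are named. Promoter sequences are from RefSeq (GRCh38.p14), a build other than that of the counts. Of several listed starts, the one whose distance to the far end of the RefSeq gene was nearest to the gene's span in the count tables was used, for all genes, and genes with none within 1000 bases were left unmatched.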

Additional observations from a re-analysis of the deposited data

How the results depend on the processing

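Under the alternatives other than leaving out a library, the number of members called stayed within 9 to 11 higher and 9 to 14 lower, beside 10 and 10. The share of all tested genes called moved too, from 23.4% by DESeq2 to 39.4% with GC and length trends removed, beside 28.8%. Counts of Eph receptors that rose were 1 by upper-quartile scaling, DESeq2 and limma-voom, and 3 ephrins fell by upper-quartile scaling and with GC and length trends removed. By DESeq2, 3 genes downstream of Eph receptors and 5 netrin, slit and RGM genes fell. Leaving out each library in turn gave 5 to 12 members lower, 1 to 2 Eph receptors higher, 0 to 1 ephrins higher and 0 to 2 lower, 2 to 4 semaphorins lower and 0 to 2 plexins lower. Without LacZ replicate 3 these were 5, 1, 0, 0, 2 and 1, and without LacZ replicate 1 the plexins gave 0. The other lists gave 0 to 3 co-receptors higher, 1 to 7 genes higher and 2 to 6 lower downstream of Eph receptors, 5 to 13 higher and 2 to 5 lower downstream of plexins, and 1 to 4 netrin, slit and RGM genes higher and 5 to 9 lower. All tested genes gave 1331 to 2789 higher and 956 to 2697 lower, and BEND3 log2 fold changes of -0.56 to -0.36. The cause was not tested, and a fit with 1 library in a group assumes that it varies like the others.

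None of the 20 called members changed direction under the 12 alternatives. Members near 0 did. With library totals only, EPHB4 was 0.016, PLXNA1 0.0068, SEMA4B 0.019 and SEMA5A 0.012 on the log2 scale. With GC and length trends removed, EPHB4 was 0.031, SEMA3G 0.0031 and SEMA4B 0.034, and by upper-quartile scaling SEMA4F was -0.0068. Leaving out a library gave ranges of -0.018 to 0.14 for EFNB1, -0.089 to 0.064 for EPHB4, -0.077 to 0.035 for PLXNA1, -0.32 to 0.13 for SEMA3E, -0.17 to 0.092 for SEMA3G, -0.13 to 0.10 for SEMA4B, -0.30 to 0.0016 for SEMA4D, -0.067 to 0.13 for SEMA4F, -0.19 to 0.070 for SEMA4G, -0.13 to 0.12 for SEMA5A, -0.069 to 0.16 for SEMA5B and -0.21 to 0.041 for SEMA6D. The leading gene of each of the 4 families was the same by CPM as by RPKM. No paired analysis was possible because the groups share only replicate number 1.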
